A study of Mus musculus with 44 samples.

Results

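The Snail and Scratch genes encode a small family of zinc finger proteins. The family has 5 members in the mouse, Snai1, Snai2, Snai3, Scrt1 and Scrt2, and it was taken by name from the 27095 gene IDs of a table of reads around gene start sites. All 5 were found there, each in 1 window of a nominal 5 kb around its annotated start, and all 5 had enough reads to enter every test. The levels of the 2 histone marks and of control IgG in these windows are described below for each library, and so are the Snai1 binding peaks called within 50 kb of the 5 genes.

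Snail proteins bind short DNA elements called E-boxes, whose preferred core reads CAGGTG or, on the other strand, CACCTG, and mostly repress the genes nearby. A short stretch at their amino end, the SNAG domain, recruits corepressors, among them the histone demethylase Lsd1 (gene Kdm1a), which removes methyl groups from mono- and dimethylated lysine 4 of histone H3. Snai1 and Snai2 are best known as switches of the epithelial-to-mesenchymal transition, in which cells lose cell-cell contacts, and Snai2 also acts in blood stem cells, whereas Scrt1 and Scrt2 act mainly in neurons. H3K4me2 lies over active and poised promoters and enhancers. H3K4me1 is typical of enhancers and of the flanks of promoters.

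The cells were HPC7, a mouse blood progenitor line grown with stem cell factor. They had been infected with a retrovirus built on MSCV-IRES-GFP that carried wild-type Snai1 cDNA, a mutant Snai1 cDNA or no gene (empty vector). The mutant encodes alanine in place of phenylalanine at residue 5, in the SNAG domain, which by the submitters' account weakens binding to Lsd1. Green cells were sorted a week after infection and expanded, so all groups share the virus backbone, the GFP marker, the sort and the culture. H3K4me2 and H3K4me1 were each profiled in 3 libraries of the wild-type group, 3 of the mutant group and 3 of the empty-vector group, and IgG in 2 libraries of the wild-type group only. Snai1 itself was precipitated in all 3 groups, with 4 technical replicates each, and 1 peak list per group was analysed. Nothing in the labels says that the numbered histone replicates came from separate cultures, so the p-values measure the spread between libraries, which may be technical.

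The bases around the start of 3 genes are given first. Each runs from 250 bases before the start to 50 bases after it in the gene's own direction, from RefSeq on GRCm38.p6, with the E-box core CAGGTG or CACCTG in capitals. The Snai1 sequence, at chr2:167537945-167538244 on the forward strand, is shown because the human Snail protein is known to bind the promoter of its own gene. The Cyba and Mvd sequences, at chr8:122432891-122433190 and chr8:122443373-122443672 on the reverse strand, are shown because the strongest peaks near Snai3 lay on them. Cyba encodes a subunit of the NADPH oxidase of phagocytes, and Mvd an enzyme of cholesterol synthesis.
Snai1: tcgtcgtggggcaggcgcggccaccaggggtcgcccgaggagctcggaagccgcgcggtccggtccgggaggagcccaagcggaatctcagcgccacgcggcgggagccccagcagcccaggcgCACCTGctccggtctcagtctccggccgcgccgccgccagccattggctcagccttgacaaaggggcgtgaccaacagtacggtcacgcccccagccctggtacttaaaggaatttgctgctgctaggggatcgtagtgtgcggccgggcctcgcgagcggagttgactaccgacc
Cyba: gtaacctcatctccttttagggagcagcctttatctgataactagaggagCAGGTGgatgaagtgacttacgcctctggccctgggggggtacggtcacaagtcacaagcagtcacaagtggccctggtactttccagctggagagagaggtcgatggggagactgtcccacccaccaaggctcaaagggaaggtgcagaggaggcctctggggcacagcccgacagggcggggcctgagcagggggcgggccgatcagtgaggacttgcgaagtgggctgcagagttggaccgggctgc
Mvd: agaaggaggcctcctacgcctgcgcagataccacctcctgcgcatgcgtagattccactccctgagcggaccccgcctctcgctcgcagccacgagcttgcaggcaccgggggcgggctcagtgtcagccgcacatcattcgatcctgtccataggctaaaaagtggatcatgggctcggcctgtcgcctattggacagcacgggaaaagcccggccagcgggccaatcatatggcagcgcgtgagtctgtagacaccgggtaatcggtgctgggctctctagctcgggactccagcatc
The core was searched on both strands, where it reads CAGGTG or CACCTG, and no other motif was searched. Of 32851 such promoter windows, 6640 (20.2%) held at least 1 copy. The Snai1 window held 1 copy, which began 126 bases before the start (chr2:167538069-167538074) and lay in no peak of any list. The Cyba window held 1 copy, which began 200 bases before the start (chr8:122433135-122433140) and lay inside both the wild-type and the mutant peak, 9 and 38 bases from their summits. The Mvd window held none.

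The libraries held 8694515 to 18199945 H3K4me2 reads, 4042976 to 8813537 H3K4me1 reads and 2714255 to 3355479 IgG reads in the windows. In every group replicate 1 differed from replicates 2 and 3 far beyond counting noise. Variance ratios were 9.49 to 17.7 for the marks, where 1 is counting noise alone. Values are therefore also given separately for replicate 1 and for replicates 2 and 3. The labels do not say what sets replicate 1 apart. Replicates 2 and 3 of the empty-vector H3K4me1 libraries differed by less than the sampling noise (ratio 0.98, chi-square p = 0.987), so their counts were summed and they count as 1 sample. Blood progenitor markers carried the marks: 10 of 12 windows were above IgG for H3K4me2 and 11 of 12 for H3K4me1 in the wild-type group, with summed levels over the mark libraries of all groups of 1430 to 1780 CPM for H3K4me2 (a window's reads divided by the library's total in the table, per 1000000). Of 10 neural, 10 epithelial and 10 lymphoid markers, 0 were above IgG for H3K4me2, and their summed H3K4me2 levels were 45.8 to 98.9, 63.4 to 82.5 and 72.1 to 99.3 CPM. In H3K4me1, 1 neural, 1 epithelial and 3 lymphoid markers were above IgG, with summed levels of 159 to 266, 189 to 226 and 252 to 321 CPM beside 1130 to 1530 CPM for the progenitor markers. These counts over IgG rest on library totals, and the sign depends on that scaling, as described below. On library totals the all-window median log2 over IgG was -1.89 for H3K4me2 and -0.446 for H3K4me1. Of all windows, 35.6% and 29.0% passed as higher than IgG.

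Windows of the 5 genes fell into different mark states. Scrt1, which encodes a repressor made in neurons, had the highest H3K4me2 of the family and Snai2 the lowest, while Snai3, a member of the family first known from skeletal muscle, had the highest H3K4me1. These are read levels per window of 1 nominal size, since the table gives no window lengths. In H3K4me1 the means ran Snai3, Snai1, Scrt1, Scrt2, Snai2 from high to low in every group, with Snai1 and Scrt1 within their spread of each other in the mutant and empty-vector groups. In H3K4me2 Scrt1 came first and Scrt2 and Snai2 last in every group, while Snai1 and Snai3 between them were within their spread of each other in the wild-type group, at 41.2 ± 9 and 38.5 ± 13.9 CPM (SD, n = 3).

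Snai1, the gene whose cDNA was introduced, had H3K4me2 levels of 32.8, 50.7 and 39.9 CPM in the wild-type libraries (replicates 1 to 3), 53.3, 36.1 and 32.8 CPM in the mutant libraries, and 26.6, 35.5 and 27.1 CPM in the empty-vector libraries. The means were 41.2 ± 9 (SD, n = 3), 40.8 ± 11 (n = 3) and 29.7 ± 5.03 CPM (n = 3). Both Snai1 groups overlapped the empty-vector group, which held the 2 lowest libraries. Its H3K4me1 levels were 76.4, 79.4 and 76.7 CPM with wild-type Snai1, 104, 80.1 and 79 CPM with the mutant and 87.5, 63.1 and 64.9 CPM with the empty vector, so that replicate 1 was the highest library of the mutant and of the empty-vector group. IgG gave 78.4 and 62.7 CPM at this window, a background above 99.1% and 97.9% of all windows in the same libraries. Reads of the viral cDNA and of the chromosomal gene cannot be told apart in these counts, and only the wild-type and mutant viruses carry that cDNA.

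Snai2, also called Slug, was nearly bare. Its H3K4me2 was 2.39, 3.16 and 3.65 CPM in wild-type libraries, 1.98, 5.26 and 5.27 CPM in mutant libraries and 3.46, 3.97 and 4.37 CPM in empty-vector libraries, with means of 3.07 ± 0.63, 4.17 ± 1.9 and 3.94 ± 0.456 CPM (SD, n = 3 each). H3K4me1 was 6.77, 4.75 and 8.33 CPM with wild-type Snai1, 4.43, 11 and 6.43 CPM with the mutant, and 3.81, 10.2 and 10.2 CPM with the empty vector. The groups overlapped in both marks, and each mark library had 17.5% to 39.4% of all windows below this one. IgG, at 30.1 and 39.8 CPM, was higher than either mark in every library.

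Snai3 was the richest of the family in H3K4me1. Its libraries read 250, 186 and 186 CPM with wild-type Snai1, 279, 253 and 287 CPM with the mutant and 245, 254 and 235 CPM with the empty vector, each above at least 99.3% of all windows of its library. The mutant libraries did not overlap the wild-type libraries, and only the lowest of them, 253 CPM, lay within the range of the single empty-vector libraries. Wild-type and mutant groups did not overlap at 8.82% of all windows in this mark. H3K4me2 was moderate and more variable between groups, at 54.4, 32.3 and 28.9 CPM with wild-type Snai1, 57.3, 71.8 and 75.3 CPM with the mutant, and 55.1, 47.5 and 51.1 CPM with the empty vector. All 3 mutant libraries were above all others, while replicate 1 of the wild-type group lay among the empty-vector libraries. In H3K4me2, groups did not overlap at 7.54% of all windows for mutant against empty vector and at 10.1% for wild type against mutant. IgG gave 81.7 and 50.9 CPM, above 99.5% and 90.3% of all windows in the same libraries.

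Scrt1 carried the family's highest H3K4me2, at 99, 83.3 and 75.6 CPM in wild-type libraries, 96.7, 89.7 and 89.9 CPM in mutant libraries and 108, 107 and 104 CPM in empty-vector libraries. Every wild-type and every mutant library was below every empty-vector library. Groups did not overlap at 13.5% of all windows for wild type against empty vector and at 7.54% for mutant against empty vector. Its H3K4me1 was 72.1, 47.1 and 54.6 CPM with wild-type Snai1, 80.8, 43.5 and 49.5 CPM with the mutant and 80, 59.2 and 59.7 CPM with the empty vector, with replicate 1 the highest in each group. IgG gave 53.1 and 38.3 CPM.

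Scrt2, the second Scratch gene, was low. H3K4me2 was 10.4, 8.55 and 7.78 CPM with wild-type Snai1, 10.8, 20.4 and 21 CPM with the mutant, and 11.1, 12.9 and 14.5 CPM with the empty vector. The wild-type libraries were below all others, and the mutant group held the 2 highest libraries and, in replicate 1, a value within 1 CPM of the wild-type and empty-vector replicates 1. In this mark, groups did not overlap at 13.5% of all windows for wild type against empty vector and at 10.1% for wild type against mutant. H3K4me1 was 23.2, 16 and 18.5 CPM with wild-type Snai1, 25.1, 38.9 and 35.6 CPM with the mutant, and 24.3, 22 and 27.8 CPM with the empty vector, and the 2 highest libraries were again mutant replicates 2 and 3. IgG gave 49.8 and 36.1 CPM.

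**Figure D1:**
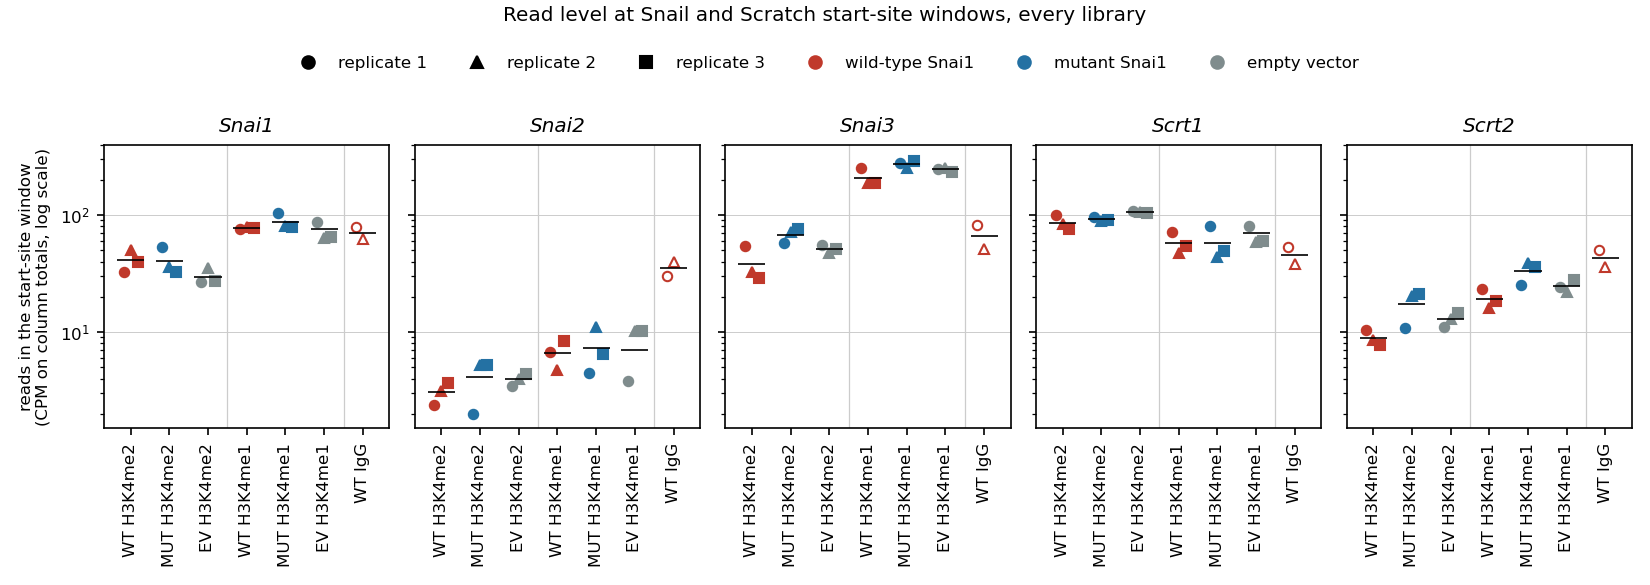
CPM in the start-site window of each gene (log axis), 1 point per library, with the wild-type group left of the mutant and empty-vector groups for each mark and the wild-type IgG libraries at the right; lines are group means, counting the 2 summed empty-vector H3K4me1 libraries once. Snai3 lies between 186 and 287 CPM in H3K4me1, and Snai2 lies at or below 11 CPM in both marks while its IgG libraries lie at 30.1 and 39.8 CPM.

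The comparison of the constructs asks whether Snai1, or Snai1 with a weakened Lsd1 contact, altered either mark at the family's own genes. For both marks and all 3 pairs of constructs, 0 of the 5 windows passed an adjusted p under 0.05 in edgeR (quasi-likelihood F-test, p-values adjusted by Benjamini-Hochberg for all windows). The background was 1 of 25742 windows (0.00388%) for H3K4me2 between wild-type Snai1 and empty vector, and 0 windows (0.0%) in the other 5 comparisons, so the family's count of 0 is that of nearly every gene in this fit. At an unadjusted p under 0.05 the counts over all windows were 1884, 1274 and 2548 for H3K4me2 (wild type over empty vector, mutant over empty vector, wild type over mutant) and 742, 415 and 1347 for H3K4me1. DESeq2 called 95, 6 and 72 windows for H3K4me2 and 4, 0 and 31 for H3K4me1, again with 0 of the 5.

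Snai3 and Scrt2 had the smallest unadjusted p-values of the family, all between wild-type and mutant Snai1. In H3K4me2 Snai3 had a log2 fold change of -0.73 (SE 0.18, adjusted p = 0.503 by edgeR) and Scrt2 one of -0.86 (SE 0.261, adjusted p = 0.503 by edgeR). In H3K4me1 the same contrast gave -0.74 at Scrt2 (SE 0.198, adjusted p = 0.847 by edgeR) and -0.38 at Snai3 (SE 0.211, adjusted p = 0.999 by edgeR). The wild-type libraries did not overlap the mutant libraries at these 2 genes in either mark, and lay below them. Groups that do not overlap were found at 10.1% of all windows for H3K4me2 and 8.82% for H3K4me1 in this contrast.

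The chromosomes of these 2 genes differed in the same direction as a whole. On chromosome 8, which holds Snai3, the median over 1134 windows was -0.25 for H3K4me2 and over 1136 windows -0.30 for H3K4me1 in wild type minus mutant, and on chromosome 2, which holds Snai1 and Scrt2, it was -0.18 and -0.17. Against its own chromosome's median, Snai3 differed by -0.48 in H3K4me2 and by -0.078 in H3K4me1, and Scrt2 by -0.68 and -0.57. The part of these chromosome-wide shifts in the 2 differences was not tested.

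Both differences lay mostly in replicates 2 and 3. In those libraries alone, wild type minus mutant in H3K4me2 was -1.10 at Snai3 (SE 0.084, adjusted p = 9.41e-08 by edgeR) and -1.17 at Scrt2 (SE 0.126, adjusted p = 3.95e-06 by edgeR), whereas replicate 1 gave -0.12 and -0.11, with no test. In that fit 58.3% of all windows passed, and replicates 2 and 3 of a group differed from each other by variance ratios of only 1.23 to 2.3. The chromosome 8 median in replicates 2 and 3 was -0.37 and in replicate 1 -0.009, and the chromosome 2 medians were -0.29 and 0.002. In H3K4me1, Scrt2 gave -0.99 in replicates 2 and 3 (SE 0.137, adjusted p = 1.24e-11 by edgeR, with 39.4% of all windows called) and -0.23 in replicate 1, while Snai3 gave -0.41 and -0.27 beside chromosome 8 medians of -0.47 and -0.027. With mutant replicate 1 left out, Snai3 (-0.75, adjusted p = 0.0395 by edgeR) and Scrt2 (-1.04, adjusted p = 0.0227 by edgeR) passed in H3K4me2, in a fit that called 16.6% of all windows. Without wild-type replicate 1 Snai3 passed (-1.04, adjusted p = 0.00335 by edgeR), in a fit that called 0.957% of all windows.

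Against the empty vector, Snai3 stood at -0.34 (SE 0.181) with wild-type Snai1 and 0.39 (SE 0.179) with the mutant in H3K4me2, and Scrt2 at -0.45 (SE 0.262) and 0.40 (SE 0.258), with adjusted p-values of 0.748 to 0.952 by edgeR. In replicates 2 and 3 alone these were -0.58 and 0.52 at Snai3 and -0.64 and 0.54 at Scrt2, all passing there with 23.5% (wild type) and 32.7% (mutant) of all windows called. Replicate 1 gave -0.02 and 0.104 at Snai3 and -0.101 and 0.011 at Scrt2. Without wild-type replicate 1 Snai3 passed against the empty vector (-0.65, adjusted p = 0.0496 by edgeR), where 0.682% of all windows did. Both comparisons use the same empty-vector libraries. In H3K4me1 Scrt2 stood at -0.34 (SE 0.218) with wild-type Snai1 and at 0.41 (SE 0.219) with the mutant, and Snai3 at -0.22 (SE 0.234) and 0.16 (SE 0.236). With the 2 empty-vector H3K4me1 libraries summed, the wild-type group did not overlap the empty-vector group at Scrt2 (as at 14.5% of all windows), and the mutant group did not overlap it at Snai3 and Scrt2 (as at 9.11%). Taken singly, the libraries overlapped in each of these cases. At Scrt2 the empty-vector libraries ran from 22 to 27.8 CPM, the highest wild-type library was 23.2 CPM and the lowest mutant library 25.1 CPM.

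Scrt1 was lower in both Snai1 groups than with the empty vector without passing the test. Its H3K4me2 log2 fold changes were -0.24 (SE 0.116, adjusted p = 0.703 by edgeR) with wild-type Snai1 and -0.21 (SE 0.116, adjusted p = 0.952 by edgeR) with the mutant. Windows whose libraries did not overlap between the groups made up 13.5% and 7.54% of all windows in these 2 comparisons, and besides Scrt1 they held Scrt2 in the comparison with wild type and Snai3, higher, in that with the mutant. Wild type and mutant differed by only -0.022 at Scrt1 (SE 0.116). Replicates 2 and 3 alone gave -0.30 and -0.29 against the empty vector and replicate 1 gave -0.125 and -0.109. In H3K4me1 Scrt1 stood at -0.25 (SE 0.316) and -0.23 (SE 0.316) against the empty vector. Replicates 2 and 3 alone called 3 of the 5 windows in H3K4me1 with wild-type Snai1 (Snai1, Snai3 and Scrt2, with 28.6% of all windows called) and 3 with the mutant (Snai1, Scrt1 and Scrt2, with 24.2% called).

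At Snai1 itself the H3K4me2 log2 fold change was 0.54 (SE 0.238, adjusted p = 0.641 by edgeR) with wild-type Snai1 and 0.47 (SE 0.237, adjusted p = 0.952 by edgeR) with the mutant, each over the empty vector. These exceeded the changes of 97.7% and 93% of all windows. Replicate 1 and replicates 2 and 3 differed on which construct was higher. Replicates 2 and 3 alone gave 0.63 for wild type (adjusted p = 0.00237 by edgeR) and 0.068 for the mutant (adjusted p = 0.725 by edgeR). In these comparisons 23.5% and 32.7% of all windows were called. Replicates 2 and 3 of a group differed in H3K4me2 by variance ratios of only 1.23 to 2.3, a spread that may be technical. Replicate 1 gave 0.30 and 1.05. Wild type minus mutant was accordingly 0.56 in replicates 2 and 3, where 58.3% of all windows were called. It was -0.75 in replicate 1 and 0.076 (SE 0.234) over all. In H3K4me1 Snai1 stood at 0.047 (SE 0.237) with wild-type Snai1 and 0.23 (SE 0.238) with the mutant over the empty vector, both with an adjusted p of 1 by edgeR. Replicates 2 and 3 alone gave 0.37 and 0.28, with the empty-vector arm being 1 summed sample, and replicate 1 gave -0.225 and 0.34. The viral copy again cannot be told apart from the gene here.

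None of the differences at Snai2 passed. Its H3K4me2 log2 fold changes were -0.30 (SE 0.328) with wild-type Snai1 and 0.017 (SE 0.32) with the mutant over the empty vector, and its H3K4me1 values -0.073 (SE 0.424) and 0.003 (SE 0.438). Replicate 1 and replicates 2 and 3 had opposite signs in both marks with the mutant, at -0.75 and 0.28 in H3K4me2 and 0.30 and -0.21 in H3K4me1, and in H3K4me1 with wild-type Snai1, at 0.79 and -0.54.

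**Figure D2:**
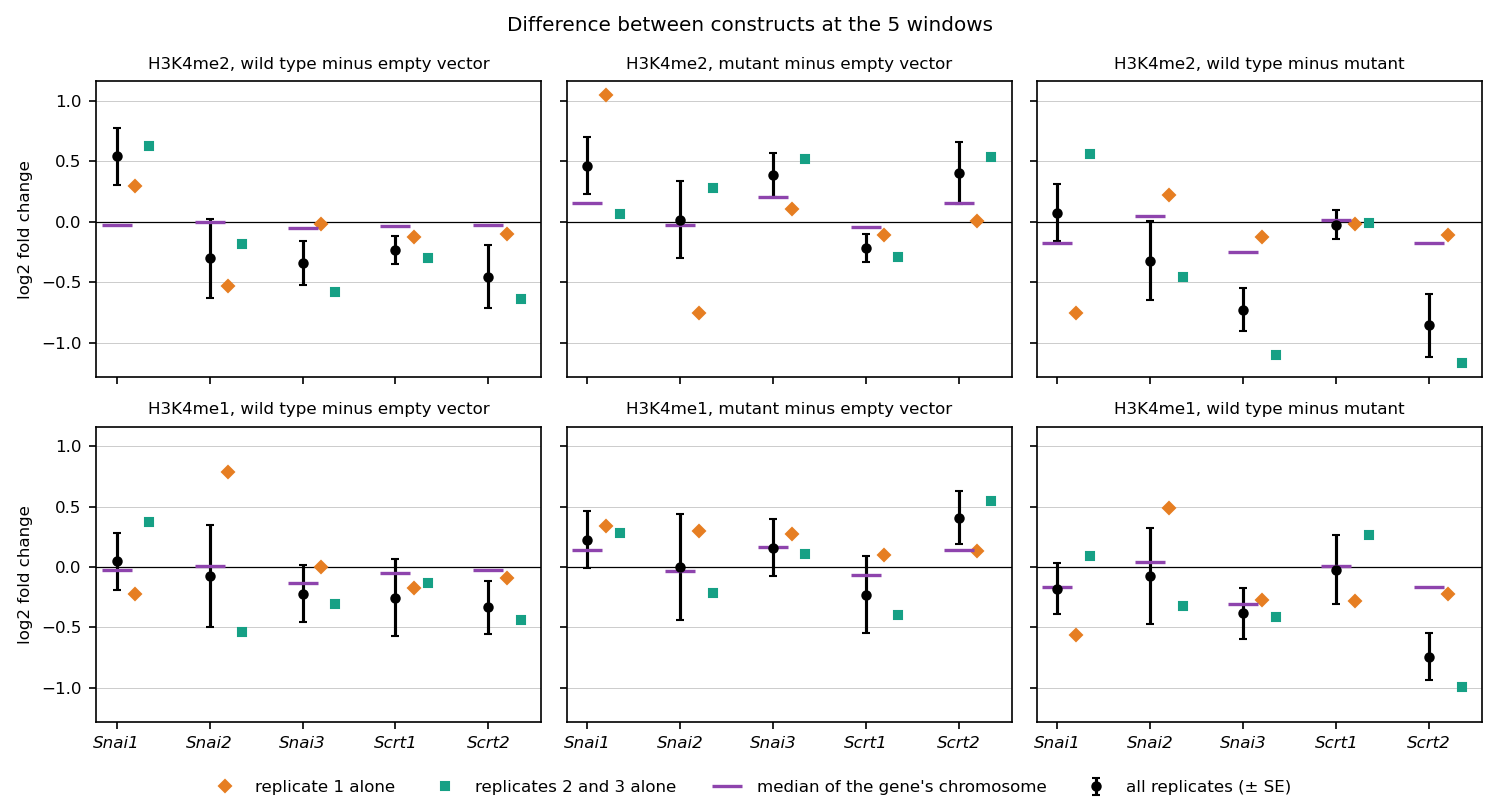
Log2 fold change between constructs at the 5 windows for H3K4me2 (top) and H3K4me1 (bottom); black points are the fit over all replicates with its SE, diamonds replicate 1 alone, squares replicates 2 and 3 alone, and bars the median of all windows on the gene's chromosome. Wild type minus mutant in H3K4me2 reaches -1.10 at Snai3 and -1.17 at Scrt2 in replicates 2 and 3, against -0.12 and -0.11 in replicate 1.

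Whether a construct changed the 2 marks unequally was tested as an interaction of mark and construct. It passed at 0 of the 5 windows in each of the 3 pairs (background 0 of 26008 windows, 0.0%), with 157, 135 and 320 windows at an unadjusted p under 0.05 and 0 calls by DESeq2. The widest value was at Snai1, where the H3K4me2 difference minus the H3K4me1 difference was 0.44 (SE 0.362) for wild-type Snai1 minus empty vector. At Snai3 the value between wild type and mutant was -0.37 (SE 0.274).

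Each mark was also set against IgG in the wild-type group, on library totals. All 5 windows passed for H3K4me2, where 91.3% of all windows passed (35.6% higher and 55.7% lower than IgG), so passing is not particular to the family. The log2 values over IgG were 0.91 at Scrt1 (SE 0.208), -0.79 at Snai1 (SE 0.175), -0.78 at Snai3 (SE 0.283), -2.27 at Scrt2 (SE 0.26) and -3.52 at Snai2 (SE 0.303), beside an all-window median of -1.89. Scrt1 lay above 80% of windows on this scale, Snai1 and Snai3 above 54.6% each, Scrt2 above 48% and Snai2 above 29.4%. The sign depends on how mark and IgG libraries are scaled: with TMM factors 3 of 5 passed, with Snai1 at -0.080 and Snai3 at -0.090, while 95.5% of all windows passed (11271 higher and 13792 lower). With DESeq2 size factors Snai1 stood at 0.76 and Snai3 at 0.73 while the split over all windows was 12084 higher and 12591 lower. Scaled instead on olfactory and vomeronasal receptor windows, which blood cells do not use, 4 of 5 passed, all higher, with 14480 windows higher and 167 lower, and Snai2 stood at 0.083.

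For H3K4me1 over IgG, 3 of 5 windows passed, where 77.8% of all windows passed (29.0% higher and 48.9% lower). Snai3 was higher than IgG, at 1.64 (SE 0.292, adjusted p = 0.000258 by edgeR), above 97.6% of windows. Scrt2 stood at -1.15 (SE 0.258) and Snai2 at -2.39 (SE 0.297), and both were lower than IgG. Scrt1, at 0.34 (SE 0.21), and Snai1, at 0.131 (SE 0.177), did not pass on library totals, beside an all-window median of -0.45. With TMM factors all 5 passed, as did 85.3% of all windows, with 10911 windows higher and 11460 lower, and DESeq2 gave 12443 higher and 10360 lower. On the receptor windows 16473 were higher and 1003 lower, and Scrt2 and Snai2 turned to 1.40 and 0.24.

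The balance of the marks, averaged over the 3 constructs, separated Scrt1 from the others. H3K4me2 exceeded H3K4me1 at Scrt1 by 0.61 (SE 0.118, adjusted p = 0.00016 by edgeR), above 87.5% of windows. It was lower than H3K4me1 by log2 values of -2.23 at Snai3 (SE 0.116, adjusted p = 3.2e-11 by edgeR), -1.12 at Snai1 (SE 0.117), -0.996 at Scrt2 (SE 0.154) and -0.93 at Snai2 (SE 0.253), beside a median of -0.44. Only 4.23% of windows had a lower value than Snai3. All 5 passed, where 77.9% of all windows did (28.0% higher, 49.9% lower); with DESeq2 the split was 9299 higher and 8979 lower. On the receptor windows 12297 were higher and 5887 lower, and 2 of the 5, Scrt1 and Snai3, passed, with values of 1.37 and -1.46.

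**Figure D3:**
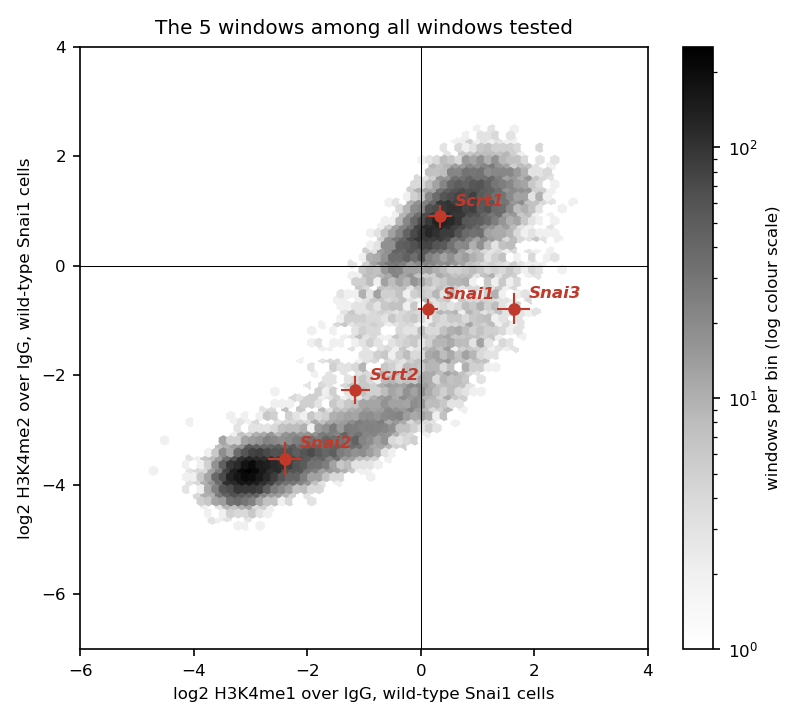
Log2 H3K4me2 over IgG against log2 H3K4me1 over IgG in wild-type Snai1 cells on library totals, with grey bins counting all windows tested (log colour scale) and red points the 5 genes with their SE. Scrt1, at 0.91 and 0.34, lies in the upper cloud, Snai2, at -3.52 and -2.39, in the lower one, and Snai3, at -0.78 and 1.64, at the right edge between them.

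Snai1 binding near the family's own genes was read from the deposited peak lists, 1 per construct, so nothing here has replicates or a test. Within 50 kb of the 5 genes, counting 0 for a peak inside the gene, there were 3 peaks in the wild-type list, 11 in the mutant list and 0 in the empty-vector list. The lists hold 2929, 12037 and 137 peaks, and the share of all 25204 genes with coordinates that had a peak as near was 25.4%, 56.3% and 1.78%. In the wild-type list 2 of the 5 genes had one (Snai1 and Snai3), and in the mutant list 3 of 5 (those and Scrt1). Snai2 and Scrt2 had none in any list, the nearest mutant peaks being 227048 and 106898 bases away. The fold of each peak is the authors' own, over local background, and levels are not compared between lists.

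The only peak inside a family gene was in the mutant list, in Snai1 itself, at chr2:167538660-167538875, with its summit 530 bases downstream of the start and 4.83-fold (-log10 q = 8.01). That q is above those of 45% of the mutant list. Reads of the mutant cDNA in the virus would map to the exons of this gene, and their part in the peak was not tested. The wild-type list, which holds 2929 peaks against 12037 in the mutant list, had no peak in the gene. At chr2:167578537-167578754, 35723 bases beyond the end of Snai1, a wild-type peak of 5.08-fold overlapped a mutant peak of 9.8-fold, over the genes Gm11476 and Gm31619. The other 2 mutant peaks lay 35282 and 29778 bases before Snai1, in Rnf114, a ubiquitin ligase gene, at 3.73-fold and 6.07-fold.

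Snai3 had the highest peaks of the family's neighbourhoods. A wild-type peak of 8.0-fold (-log10 q = 12.8) and a mutant peak of 17.0-fold (-log10 q = 54) overlapped on the Cyba promoter printed above, 20865 and 20837 bases from Snai3, at chr8:122432988-122433339 and chr8:122432876-122433367. On the Mvd promoter, the same lists had peaks of 5.81-fold and 9.04-fold, 10531 and 10465 bases from Snai3. The mutant list alone held a peak 496 bases beyond the higher-coordinate end of Snai3, at chr8:122461305-122461712 (5.25-fold, -log10 q = 6.56), and one in Rnf166, 13149 bases away (4.38-fold). The windows of Cyba and Mvd carried H3K4me2 of 85.2 and 96.9 CPM on average with wild-type Snai1, 108 and 114 CPM with the mutant, and 103 and 113 CPM with the empty vector.

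Scrt1 had 3 peaks, all in the mutant list. The nearest, at chr15:76538662-76538912, lay 16533 bases beyond the higher-coordinate end of Scrt1, on the boundary of Fbxl6 and Slc52a2 (7.28-fold, -log10 q = 14.7). The others lay 30714 bases beyond that end (5.11-fold) and 38723 bases below the lower-coordinate end (7.0-fold). The latter overlapped both Bop1 and Hsf1, with its summit in Hsf1. Hsf1 encodes the main heat shock transcription factor. At 5 kb the counts over the family were 0 in the wild-type list and 2 in the mutant list, where 10.2% and 32.9% of all genes had a peak as near.

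**Figure D4:**
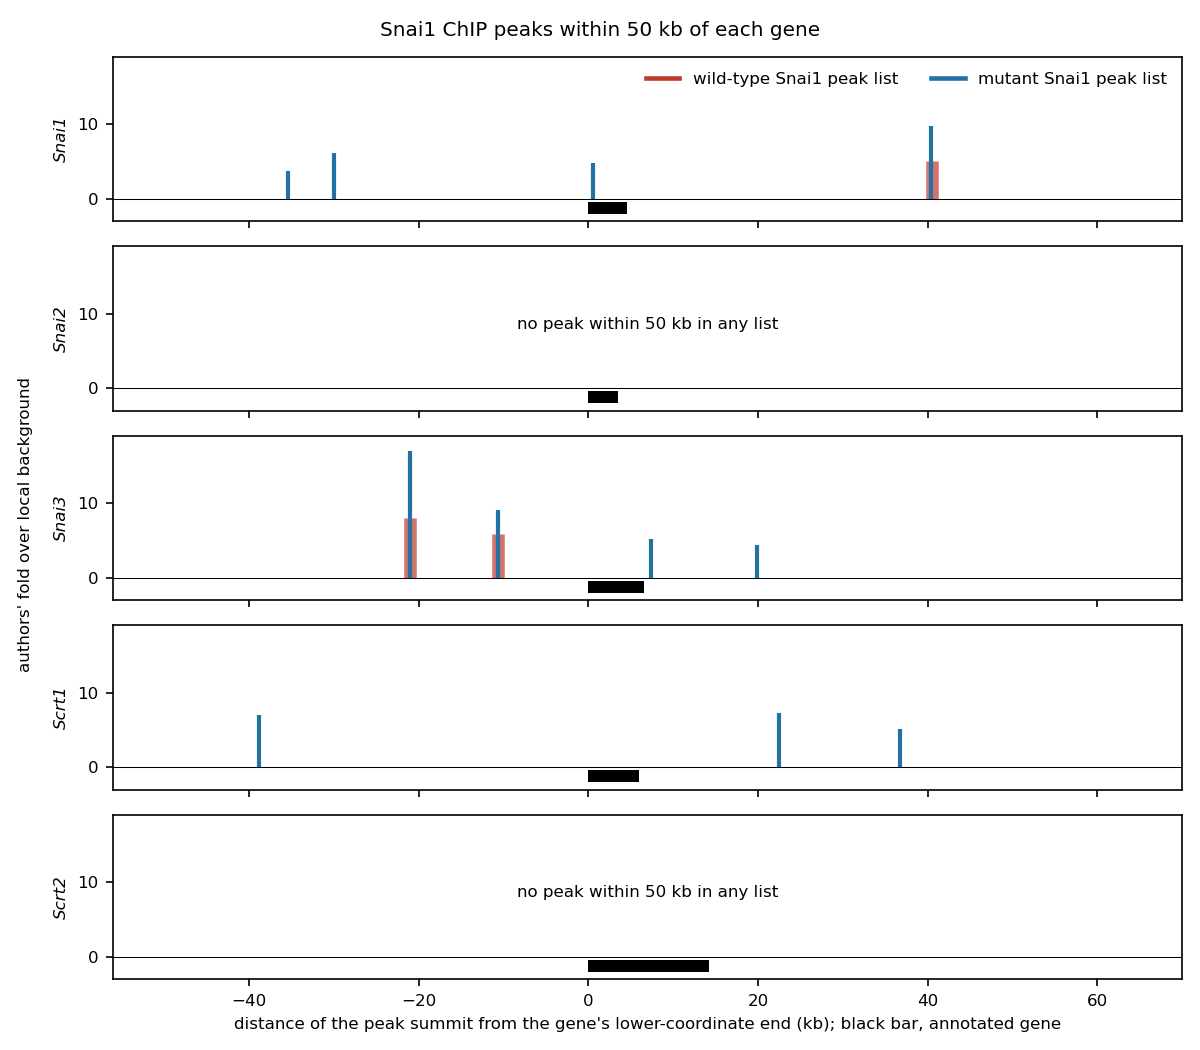
Snai1 ChIP peaks within 50 kb of each gene, placed by the distance of their summit from the gene's lower-coordinate end (kb), with the authors' fold over local background as height; thick red lines are peaks of the wild-type list, thin blue lines peaks of the mutant list, and black bars the annotated genes, while the empty-vector list had 0 peaks here. The tallest pair, 8.0-fold and 17.0-fold, lies over the Cyba promoter near Snai3, and Snai2 and Scrt2 have none.

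For each gene the 3 windows whose log2(CPM + 0.5) followed it most closely over the 20 libraries were found, leaving out neighbours within 10 kb. The libraries share antibodies and replicate numbers, and the correlations are a description with no test. For Snai3 the closest were Ccdc102a (Pearson r = 0.985), Nwd1 (0.979) and Adgrg5 (0.976), all on chromosome 8 as Snai3 is, against 0.937 for the window ranked 100. Snai1 was followed most closely by Dkkl1 (0.94) and Tead2 (0.934), both on chromosome 7, and by 1 gene without a symbol, and Snai2 by Gm1966 (0.98), Fsip1 (0.978) and Arap2 (0.973). Scrt1 was followed by Enc1 (0.966), Zfp593 (0.963) and Ggn (0.963), and Scrt2 by Gm3764 (0.974), Ighj4 (0.966) and 1 gene without a symbol. Within the family, the pairs ran between -0.765 for Snai2 and Scrt1 and 0.792 for Snai2 and Scrt2.

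The genes that work with the Snail family were taken as 6 lists, and 0 of their members passed in any of the 6 construct comparisons. The 22 corepressor genes had median H3K4me2 log2 fold changes of 0.079 with wild-type Snai1 and -0.019 with the mutant over the empty vector, beside all-window medians of -0.006 and 0.026. Kdm1a, which encodes Lsd1, stood at 0.068 (SE 0.142) and -0.021 (SE 0.142), and Hdac2, a histone deacetylase, at 0.32 between wild type and mutant (SE 0.111, adjusted p = 0.503 by edgeR). Among the 14 genes of Snail protein turnover, the H3K4me2 medians were 0.13 and -0.045, and Fbxo11, which encodes a ubiquitin ligase subunit for Snail proteins, stood at 0.48 with wild-type Snai1 (SE 0.164, adjusted p = 0.519 by edgeR). The 6 other genes whose proteins carry a SNAG domain had medians of -0.053 and 0.262. Gfi1, which encodes a repressor in blood stem and progenitor cells that also recruits Lsd1, had the smallest p of all lists: -0.90 with wild-type Snai1 (SE 0.293, adjusted p = 0.497 by edgeR) and -1.11 with the mutant (SE 0.295, adjusted p = 0.952 by edgeR), whereas its relative Gfi1b stood at 0.113 (SE 0.17) and 0.24 (SE 0.169).

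The 10 other transcription factors of the epithelial-to-mesenchymal transition had H3K4me2 medians of -0.026 with wild-type Snai1 and 0.154 with the mutant. Zeb2, which represses epithelial genes and also acts in blood, stood at 0.62 (SE 0.221, adjusted p = 0.525 by edgeR) and 0.62 (SE 0.22, adjusted p = 0.952 by edgeR). The 16 genes that Snail represses in epithelia had medians of 0.056 and -0.018, with Ocln, a tight junction gene, at 1.39 with wild-type Snai1 (SE 0.609, adjusted p = 0.641 by edgeR). The 12 genes raised in the transition had medians of -0.205 and 0.043, with the collagen gene Col1a1 at -0.47 with wild-type Snai1 (SE 0.232, adjusted p = 0.71 by edgeR). Col1a2, another collagen gene, went the other way in that comparison, at 0.497 (SE 0.254, adjusted p = 0.731 by edgeR). Of the 12, 3 were positive and 9 negative there. In H3K4me1 the medians of the 6 lists lay between -0.12 and 0.134 with wild-type Snai1 and between -0.113 and 0.083 with the mutant, beside all-window medians of -0.016 and -0.003.

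Snai1 peaks near the genes of these lists were counted beside the share of all genes, and no list was tested for an excess of peaks. Within 5 kb of either gene end, 3 of 22 corepressor genes (13.6%) had a wild-type peak and 8 (36.4%) a mutant peak, and of the turnover genes 2 of 14 (14.3%) and 6 (42.9%), where 7.8% and 28.4% of all genes had one. At Fbxl14, whose protein targets Snail proteins for degradation, the peaks were 22.0-fold in the wild-type list and 17.8-fold in the mutant list, 751 and 645 bases from the nearer gene end. At Kpnb1, which encodes importin beta, a carrier of Snail into the nucleus, they were 14-fold and 16.3-fold. Ctbp1, which encodes a corepressor, had peaks of 4.7-fold and 19-fold, and Sin3a, which encodes the scaffold of a deacetylase complex, 6.63-fold and 12.8-fold. Of the genes that Snail represses in epithelia, 2 of 16 (12.5%) had a wild-type and 5 (31.2%) a mutant peak, and at Crb3, a cell polarity gene, the peaks were 14.7-fold and 34.1-fold. Of the genes raised in the transition, 1 of 12 (8.33%) and 3 (25.0%) did, with Vim, the vimentin gene, at 13.2-fold and 11-fold. Of the other transcription factors of the transition 0 of 10 and 2 (20.0%) did, and of the other SNAG genes 0 of 6 and 2 (33.3%), among them Gfi1b with a mutant peak of 4.67-fold.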

How the data were processed

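Read counts per start-site window were deposited by the authors as raw counts, made with Subread and featureCounts on mm10 (GRCm38) per the submitters' processing notes; filters are not given in the sources used here. Peaks are 1 deposited MACS2 list per construct (tool per the submitters' processing notes), whose columns, as deposited, hold a fold ratio over local background, -log10 q values and a score derived from them, of which fold and -log10 q were used; how the 4 technical replicates were combined is not given in the sources used here.

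From the counts, 20 windows with no read and 50 whose counts repeat an earlier row, which overlap since windows with no read repeat each other, were left out, leaving 27044, with gene names for 25204 (93%) of 27095 IDs from RefSeq (GRCm38.p6). Constructs were compared within each mark by edgeR 4.0.16 (R 4.3.3; TMM, filterByExpr, quasi-likelihood F-test, two-sided, Benjamini-Hochberg over all windows, threshold 0.05), all 3 constructs in 1 fit. Marks over IgG, and H3K4me2 over H3K4me1, used library totals. DESeq2 1.42.0 and the other alternatives are in the closing section. The tests were checked on simulated counts with the same spread at all windows and no difference between replicate numbers. That check does not cover the way replicate 1 stands apart in the real libraries. Counting intervals do not cover PCR duplicates.

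Deviations of same-numbered libraries from their group means correlated at 0.112 to 0.568 between either Snai1 group and the empty vector. Between wild type and mutant these correlations ran from -0.216 to 0.241. Libraries of different numbers were not compared, so whether the numbers mark pairs cannot be told from these values. The main fits leave the replicate numbers out.

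The 5 genes, the 6 gene lists and the marker lists were chosen with earlier results of these data known. Named genes are the 5, their 3 closest windows, every peak within 50 kb, and in each list those of smallest p and highest peak. The input libraries were not analysed here.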

Additional observations from a re-analysis of the deposited data

How the results depend on the processing

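Of 710 values of single windows under alternatives, 584 stayed on their side of the threshold with their sign or moved less than their spread, 28 now passed, 9 no longer passed, 28 moved and 61 changed sign; the cause was not tested in any case where a construct comparison changed. Of 136 counts, 118 stayed within 1.5 times. No construct comparison called a member under column totals, receptor scaling, no filter, no summing, DESeq2, 2 constructs per fit or replicates 2 and 3 summed with a batch term. That term sets replicate 1 apart from the others, and no label names a batch. Replicates 2 and 3 alone called 4, 3 and 3 of the 5 windows in H3K4me2 (wild type over empty vector, mutant over empty vector, wild type over mutant), where 23.5%, 32.7% and 58.3% of all windows were called. In H3K4me1 they called 3, 3 and 3, where 28.6%, 24.2% and 39.4% of all windows were called and the empty-vector arm is 1 summed sample assumed to vary like the others. Leaving out 1 library gave 0 to 1 called in H3K4me2 for wild type over empty vector (1, Snai3, without wild-type replicate 1, with 0.682% of all windows called). For wild type over mutant it gave 0 to 2, with 16.6% of all windows called without mutant replicate 1 and 0.957% without wild-type replicate 1.

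Over IgG, TMM called 3 of the 5 windows for H3K4me2 (95.5% of all windows) and 5 for H3K4me1 (85.3%), and receptor scaling, added after seeing the data, left 2 called for H3K4me2 over H3K4me1. Peaks within 100 kb numbered 5 (wild type) and 23 (mutant), within 5 kb 0 and 2, and at -log10 q of at least 10 they numbered 1 and 6.

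The replicate block, which adds the replicate numbers to the fit, changed no call at the 5 windows. Over all windows it called 5, 0 and 12 in H3K4me2 and, with no summing (added after seeing the data), 2, 0 and 2 in H3K4me1. Under the block the Snai2 H3K4me2 value for mutant over empty vector was -0.046, its H3K4me1 value -0.101, the Scrt1 H3K4me1 value for wild type over mutant 0.027 and its interaction 0.001.

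Signs turned mostly at values near 0. For Snai2, mutant over empty vector, H3K4me2 gave -0.013 (DESeq2), -0.014 (2 constructs per fit), -0.212 (batch term) and -0.232 (receptor scaling), and H3K4me1 -0.142 (no summing), -0.001 (2 constructs), -0.212 (replicates 2 and 3), -0.027 (batch term) and -0.047 (receptor scaling). For Snai2, wild type over mutant gave 0.045 in H3K4me2 and 0.004 in H3K4me1 under receptor scaling and 0.118 in H3K4me1 with the batch term, which also gave 0.091 for wild type over empty vector. The Snai2 interaction for mutant over empty vector was -0.028 by DESeq2. For Scrt1, wild type over mutant gave in H3K4me2 0.009 (DESeq2), 0.01 (2 constructs), 0.006 (batch term) and 0.219 (receptor scaling), and in H3K4me1 0.264 (replicates 2 and 3) and 0.01 (batch term). Its interactions were 0.042 (wild type over empty vector) and 0.044 (wild type over mutant) by DESeq2 and 0.043 (mutant over empty vector) on column totals, where Scrt2 gave 0.01. For Snai1, wild type over mutant gave 0.093 in H3K4me1 (replicates 2 and 3) and -0.101 in H3K4me2 (batch term). Over IgG, DESeq2 gave 0.76 at Snai1 and 0.73 at Snai3 in H3K4me2, and receptor scaling 2.78 and 2.71 there, 1.25 at Scrt2 and 0.083 at Snai2, and in H3K4me1 1.40 at Scrt2 and 0.24 at Snai2.

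Leaving out 1 library turned signs within these ranges. In H3K4me2 they were -0.095 to 0.433 (Snai1, wild type over mutant), -0.109 to 0.111 (Scrt1, wild type over mutant) and -0.176 to 0.325 (Snai2, mutant over empty vector). In H3K4me1, wild type over mutant ranged over -0.291 to 0.068 (Snai1), -0.303 to 0.29 (Snai2) and -0.238 to 0.425 (Scrt1), mutant over empty vector over -0.02 to 0.521 (Snai1), -0.477 to 0.226 (Snai2) and -0.675 to 0.052 (Scrt1), and wild type over empty vector over -0.553 to 0.084 (Snai2) and -0.42 to 0.028 (Scrt1). H3K4me1 over IgG at Snai1 ranged over -0.018 to 0.306.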

Other observations

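The neighbours of Snai3 and Scrt2 give the surroundings of the 2 differences between wild-type and mutant Snai1. Next to Scrt2, the window of Srxn1, which encodes a sulfiredoxin, had log2 fold changes of -0.36 in H3K4me2 and -0.85 in H3K4me1 (wild type minus mutant), and that of Tcf15, a transcription factor gene, had -0.47 and -0.23. Within 50 kb of Snai3, the interleukin gene Il17c stood at -0.51 and -0.60 and Gm20735 at -0.55 and -0.38. In the same order of marks, Zc3h18 stood at -0.31 and -0.20, Cyba at -0.25 and -0.27, Mvd at -0.17 and -0.19 and Rnf166 at -0.16 and -0.23. None of these windows passed the test. At Snai1 the nearest windows, Rnf114 and Spata2, have nearly equal levels and stood at 0.038 and 0.044 in H3K4me2, and over the empty vector at -0.085 and -0.081 with wild-type Snai1, where Snai1 itself stood at 0.54. The window of Scrt1 and its neighbours Fbxl6, Slc52a2 and Tmem249 had nearly equal H3K4me2 with the empty vector, at 106, 107, 107 and 104 CPM. With wild-type Snai1 they stood at 86, 96.9, 96.8 and 94.5 CPM, Scrt1 being the lowest. The log2 fold changes over the empty vector were -0.236, -0.079, -0.071 and -0.063 with wild-type Snai1. With the mutant they were -0.214, -0.187, -0.178 and -0.17.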
